A study of Mus musculus with 4 samples.

Results

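The c-Myc transgene was examined in livers with Rps6 deleted, by setting the array of ΔS6:c-Myc liver against the array of ΔS6 liver across all genes that could be measured. Each gene was represented by 1 probe set, the one with the highest mean over the 4 arrays of the series among the probe sets that carry a single gene symbol. A gene was kept when its log2 value was 6 or more on either of the arrays compared. Of 18194 genes with a single-symbol probe set, 14104 were kept. At the edge of this filter Pifo was kept with a highest value of 6.0001, while Mdrl, at 5.9987, was not.

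Total RNA of whole liver was hybridized to Affymetrix mouse arrays, with 1 array for each of 4 genotypes. WT liver was wild type, and Alb-c-Myc liver carried a c-Myc transgene under the albumin promoter with Rps6 intact. ΔS6 liver came from mice in which Albumin-Cre deletes loxP-flanked Rps6 alleles, and ΔS6:c-Myc liver had that deletion together with the transgene. Both genotypes compared here therefore share the Rps6 deletion, and they differ by the Alb-c-Myc transgene. Each array held equal amounts of RNA from 3 mice, which the labels give as males of 5 weeks that had not been fasted and were killed in the late morning. The mice were of a mixed strain. The study describes WT controls elsewhere as littermates without Cre, and in a check of recombination as carrying loxP-flanked Rps6, while for the WT and Alb-c-Myc arrays the labels do not state these alleles. As models these livers have limits, since both Cre and the transgene act where the albumin promoter is active, recombination of Rps6 was incomplete and varied between mice, and pooling hides the spread between animals.

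With 1 pooled array per genotype there is no replicate, so no test was run and no p-value is given. A difference is the log2 value on the ΔS6:c-Myc array minus that on the ΔS6 array, and a log2 difference of 1 is 2-fold. The only internal measure of error is the disagreement between probe sets of the same gene, whose SD was 0.20 over 8477 probe sets of 3379 genes whose mean log2 value reached 8. Where 4 values are given for a gene, they are log2 values in the order WT, Alb-c-Myc, ΔS6 and ΔS6:c-Myc. Values of different genes come from different probes and are not compared with each other.

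Rps6 is a protein of the small ribosomal subunit, and cells that lose it cannot make enough new ribosomes and activate p53. c-Myc is a transcription factor that pairs with Max, binds the E-box and drives the genes for ribosome assembly, nucleotide synthesis and cell division. In liver, injury or failure of hepatocytes to grow is commonly accompanied by a ductular reaction, in which bile duct and progenitor cells spread, and by recruitment of leukocytes, activation of stellate cells and expression of fetal genes. In whole liver, fewer cells of a type and less RNA per cell cannot be told apart.

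As a check of the labels, Myc was read out on all arrays. Its single probe set read 8.33, 11.68, 8.89 and 11.37, so that it was higher on both arrays with the transgene, by 2.48 in Rps6-deficient liver and by 3.35 with Rps6 intact. Rps6 is measured mainly by 9 probe sets that match both the gene and its pseudogene Rps6-ps4. All 9 were lower on the ΔS6:c-Myc array than on the ΔS6 array, with differences from -1.76 to -0.37 and a median of -1.31. The brightest of them read 14.52, 14.81, 14.35 and 13.17, and the one that differed most read 13.31, 13.64, 13.02 and 11.26. On the ΔS6 array these probe sets were thus close to WT, and where they lie relative to the deleted stretch of the gene was not analysed here. The 2 probe sets that carry the Rps6 symbol alone differed by -0.66 and 0.77 and thus went in opposite directions. The arrays compared therefore differ in Rps6 signal as well as in Myc, and which share of each difference below goes with either was not tested.

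Hepatocyte markers differed little, but they lie near the top of the range, where an array responds least. All 8 kept members of a list of defining hepatocyte genes, among them Alb and Ttr, were within 2-fold, with a median level of 14.94 on both arrays and a median difference of 0.00. The WT array stood apart in another respect, although the labels give males throughout. Xist, which coats the silenced X chromosome, read 11.84, 6.29, 5.88 and 6.33. The Y-linked genes differed far less between arrays, but each was lowest on the WT array. Eif2s3y read 8.67, 9.11, 9.09 and 8.91, Uty 7.73, 8.03, 7.79 and 7.82, and Kdm5d 7.70, 8.07, 8.14 and 8.25. The WT array thus held Y-linked as well as Xist signal, and the make-up of that pool was not tested. The 8 kept markers of pancreatic acinar cells had a median level of 9.47 on the WT array and 7.69 on the Alb-c-Myc array, against 6.99 on the ΔS6 and 7.02 on the ΔS6:c-Myc array. Neither WT nor Alb-c-Myc enters the difference that is described, but both stand beside it. Of 5 red cell markers, 2 were at least 2-fold higher with the transgene, and 2 were below 0. The higher ones were Car1 at 5.88 and 7.42 and Alas2 at 9.28 and 10.36 on the ΔS6 and ΔS6:c-Myc arrays. Probe sets shared by the hemoglobin genes Hba-a1 and Hba-a2 differed by -0.39, -0.06 and 0.32, and that of the Hbb genes by -0.15. Red cell genes thus had no common direction. Adipoq, an adipocyte hormone, read 4.38 and 6.25 and Acta1, the actin of skeletal muscle, 9.31 and 6.74, and the part of such tissue in other differences was not tested.

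Many more genes were lower than higher with the transgene. At least 2-fold lower were 771 of 14104 genes, or 5.47%, and at least 2-fold higher were 137, or 0.971%. At least 8-fold lower were 57 genes, or 0.404%, against 3 genes, or 0.0213%, that were at least 8-fold higher. The median over all kept genes was 0.04 and 53.9% of them were above 0, but the values had been quantile normalized, which removes a shift common to all genes, so these numbers do not show whether there was one. Of the 771 lower genes, 105 had a value below 6 on the ΔS6:c-Myc array, and the size of their ratio is the less certain.

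**Figure D1:**
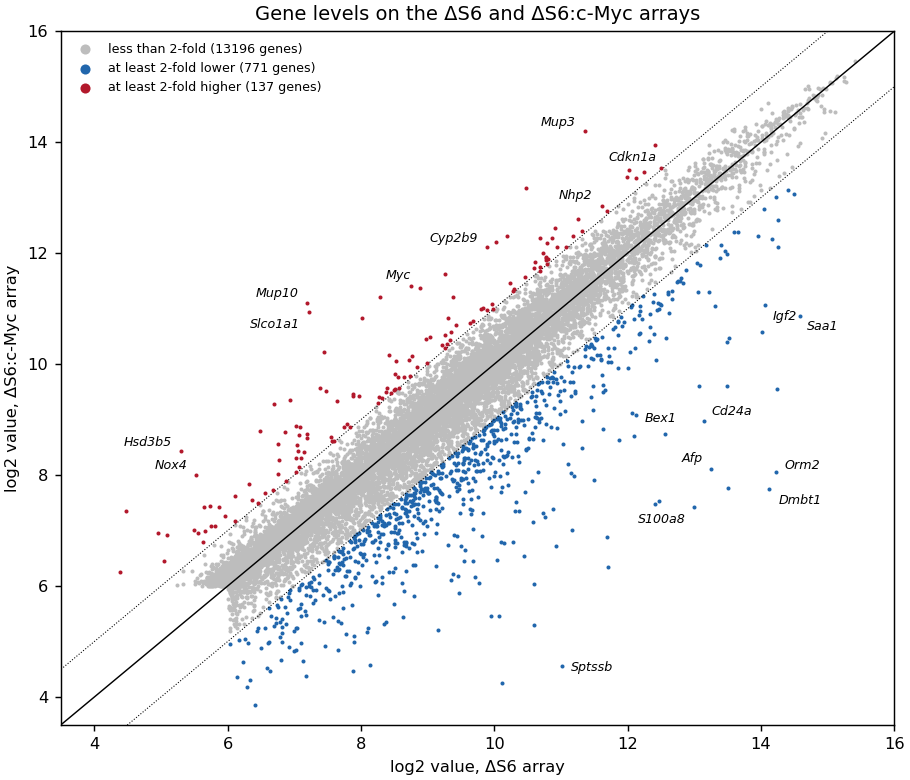
Each point is 1 of 14104 genes, with its log2 value on the ΔS6 array on the x axis and on the ΔS6:c-Myc array on the y axis. The solid line marks equal values and the dotted lines 2-fold differences, and the 771 genes below the lower dotted line reach much farther from the diagonal than the 137 above the upper one.

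The 57 genes that were at least 8-fold lower had a median level of 10.88 on the ΔS6 array and 7.02 on the ΔS6:c-Myc array. Their median was 6.63 on the WT and 6.58 on the Alb-c-Myc array. The 137 genes that were at least 2-fold higher went the other way, from a median of 8.50 to 9.83, with 9.83 on the WT and 9.93 on the Alb-c-Myc array. Genes chosen for a large difference from the ΔS6 array tend to be extreme on that array, so the nearness of the other 3 arrays is given as a description.

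Probe sets of the same gene mostly gave the same picture where both were bright. Among the 771 lower genes, 99 had 2 or more single-symbol probe sets at a mean log2 value of at least 8. In 61 of these 99 all such probe sets were at least 2-fold lower, and in 6 they disagreed in sign. Among the 137 higher genes, 26 had several bright probe sets, all of them at least 2-fold higher in 14 genes and opposed in sign in 1. With the strictest reading, that all bright probe sets differ by at least 2-fold the same way, Cxcl13, Cd24a, Igha, Saa1, Peg3, Marco, Lgals2, Cd44, Dnaic1 and Scd2 were the lowest genes. Slco1a1, Cyp7b1, Sdr9c7, Dbp, Onecut1, Cyp2d13, Cyp2j5, Chid1, Nhp2 and Chchd5 were the highest.

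**Figure D2:**
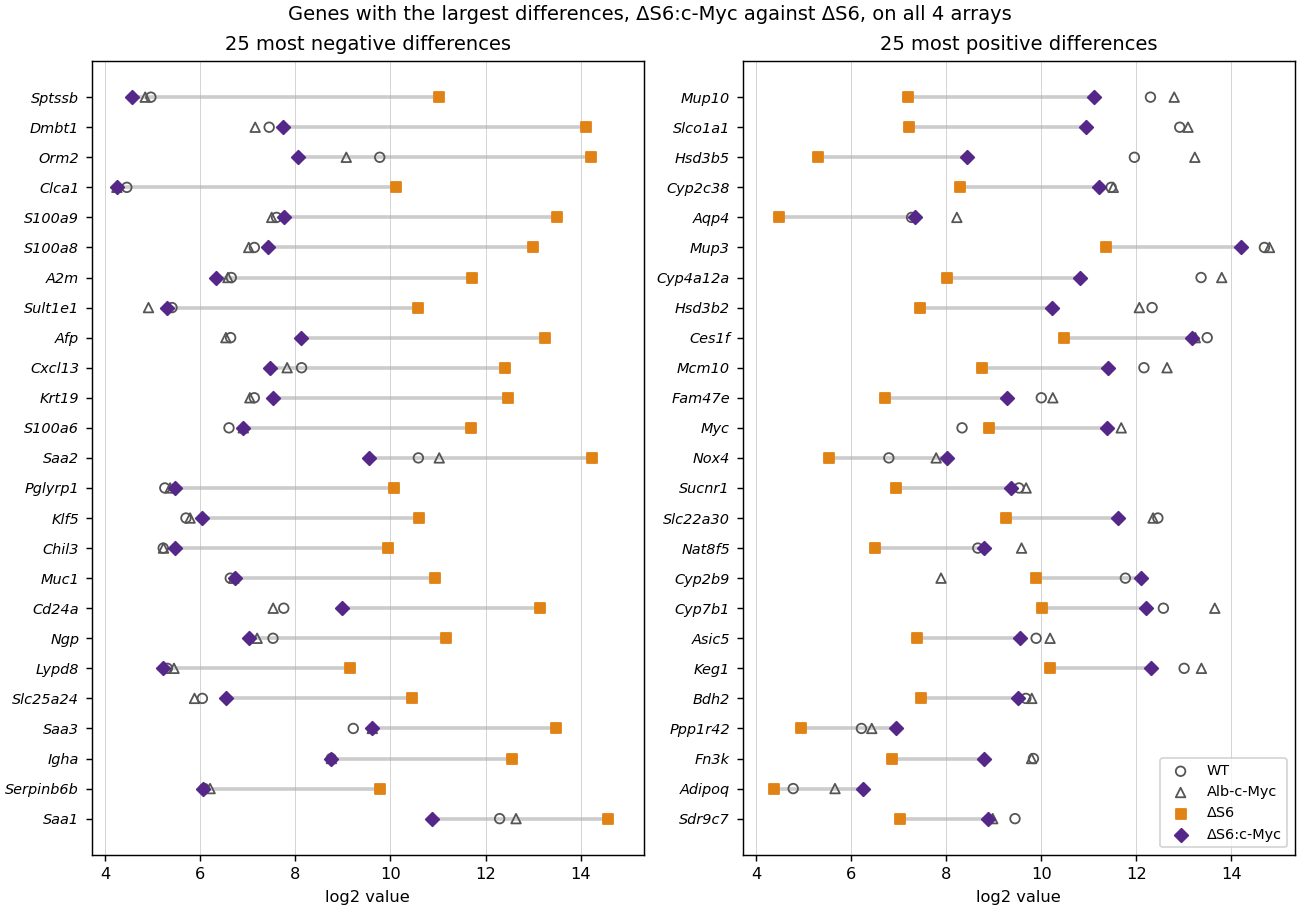
Log2 values on all 4 arrays for the 25 genes with the most negative and the 25 with the most positive difference, with a grey line joining the ΔS6 and ΔS6:c-Myc arrays. Orm2, Saa1 and Saa2 on the left end below both arrays with intact Rps6, and Mup10, Slco1a1 and Hsd3b5 on the right end between the ΔS6 array and those arrays.

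Genes of bile ducts and mucosal surfaces formed one large group among the lowest. Of 13 kept mucosal defence genes, 11 were at least 2-fold lower, against 5.47% of all genes, and none was higher, with a median difference of -2.80. Dmbt1, a scavenger receptor glycoprotein secreted by epithelia, read 7.45, 7.15, 14.12 and 7.74, an 83.3-fold lower level with the transgene. Clca1, a secreted goblet cell protein, read 4.45, 4.24, 10.12 and 4.24. On both arrays with the transgene and on WT this probe set was dim, while a second Clca1 probe set differed by 0.17. The mucin Muc1 read 6.63, 6.70, 10.93 and 6.73, and the trefoil peptide Tff3, which protects mucosa, read 8.80, 9.95, 13.50 and 10.40. Tff3 thus remained above its WT level, whereas Muc1 was close to its own. The protease inhibitor Slpi read 9.47, 8.99, 13.52 and 10.47.

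The markers of ducts and liver progenitors followed the same course. Of 16 kept markers, 14 had at least a 2-fold lower value, against 5.47% of all genes, and the median difference was -1.88. Krt19, the keratin that defines ducts, read 7.13, 7.04, 12.47 and 7.53, and its partner Krt7 read 6.53, 6.55, 10.15 and 6.77. Epcam, an adhesion molecule of duct and progenitor cells, read 7.01, 7.32, 11.11 and 8.19. The glycoprotein gene Cd24a read 7.75, 7.53, 13.15 and 8.98, with 3 probe sets between -4.70 and -4.10, and stayed more than 1 log2 unit above WT. Sox9, a transcription factor of ducts, read 6.22, 6.46, 8.68 and 6.78, and its relative Sox4 read 7.43, 7.37, 12.58 and 10.46. Among 16 kept claudins, which seal tight junctions, 4 were at least 2-fold lower, and Cldn7 (-3.41) differed most. Most keratins were within 2-fold, since 4 of 28, or 14.3%, were at least 2-fold lower, namely Krt19, Krt7, Krt20 and Krt23. The hepatocyte keratin Krt8 differed by -0.27. Klf5, a transcription factor of proliferating epithelia, read 5.70, 5.78, 10.59 and 6.03 on its brightest probe set, and its other probe sets reached -0.01.

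Leukocyte genes were lower as well. Of 14 kept neutrophil markers, 9 were at least 2-fold lower, against 5.47% of all genes, and all 14 were below 0, with a median of -2.40. The list's median level was 8.88 on the ΔS6 array and 6.84 on the ΔS6:c-Myc array. S100a8 and S100a9 encode calprotectin, the main cytosolic protein of neutrophils. S100a9 read 7.60, 7.50, 13.50 and 7.76, and S100a8 differed by -5.58. The granule genes Ngp (-4.15), Ltf (-3.31) and Camp (-2.25) were lower too. These probe sets were within 1 log2 unit of the WT value on the ΔS6:c-Myc array.

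Macrophage genes were lower by less, and their median stayed above WT. Of 20 kept markers, 14 were at least 2-fold lower, against 5.47% of all genes, and all 20 were below 0, with a median difference of -1.35. Marco, a scavenger receptor of macrophages, read 7.78, 8.08, 13.07 and 9.60, and Cd14, which binds endotoxin, read 7.23, 7.12, 12.10 and 8.71. Adgre1, the F4/80 antigen, read 8.82, 8.79, 10.77 and 9.27. The macrophage median was 9.58 on the WT array, 12.14 on the ΔS6 array and 10.08 on the ΔS6:c-Myc array. The class II antigen presentation genes H2-Ab1 (-1.38), H2-Aa (-1.22), H2-Eb1 (-1.37) and Cd74 (-1.41) were lower together, whereas their regulator Ciita differed by 0.18.

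Antibody genes were lower, and some other B cell markers were within 2-fold. Igha, the constant region of immunoglobulin A, read 8.75, 8.76, 12.57 and 8.74, and Jchain, which links its chains, read 7.10, 7.16, 10.59 and 7.15. Cd79a (0.01), Cd79b (0.12) and Ms4a1 (0.24) of the B cell receptor complex and surface were within 2-fold. The list of B and plasma cell markers was dim, with a median level of 7.89 on the ΔS6 and 7.21 on the ΔS6:c-Myc array. Its median difference of 0.01 ran from -2.54 to 0.15 under other processing, so no contrast of plasma and B cells is drawn. Cxcl13, the chemokine that attracts B cells, read 8.13, 7.83, 12.41 and 7.47, and its 2 probe sets differed by -4.94 and -7.11. Of 27 kept chemokine ligands, 5, or 18.5%, were at least 2-fold lower, against 5.47% of all genes, and Cxcl11 was higher (1.04). The T and natural killer cell markers Cd3e (0.12), Cd4 (-0.05) and Cd8a (0.23) were near their level on the ΔS6 array. Of the 9 kept members Klrd1 (-1.21) alone, or 11.1%, was at least 2-fold lower, against 5.47% of all genes. The list's median level was 7.15 on the ΔS6 array and 6.77 on the ΔS6:c-Myc array. That is near the array medians of 6.85 to 6.88, where differences near 0 say little about T cell RNA.

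Acute phase proteins are made by hepatocytes and secreted into blood under the control of interleukins. Of 22 kept members, 11 were at least 2-fold lower, against 5.47% of all genes, and 21 were below 0, with a median of -1.03. Orm2, an orosomucoid, read 9.77, 9.07, 14.22 and 8.05, a 72.1-fold lower level with the transgene. The serum amyloids Saa1 and Saa2 read 12.30, 12.64, 14.58 and 10.88 and 10.59, 11.03, 14.25 and 9.55. All 3 were lower on the ΔS6:c-Myc array than on either array with intact Rps6, each by more than 1 log2 unit. Saa3, which is made mainly outside hepatocytes, read 9.22, 9.62, 13.49 and 9.61. A2m, a protease inhibitor, read 6.65, 6.58, 11.71 and 6.34, and Lcn2, which binds bacterial siderophores, read 8.87, 8.94, 14.02 and 10.59. Lcn2 remained above WT. The fibrinogen chains Fga (-0.34), Fgb (-0.49) and Fgg (-0.39) were within 2-fold of their ΔS6 level. Socs3, an inhibitor that interleukin signals switch on, read 8.49, 8.87, 9.60 and 8.11.

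The 250 bases before the start of Orm2 hold a copy of TGANTCA, a loosened form of the site for AP-1 factors. N stands for any base, and the pattern reads the same on both strands. The pattern also occurs, with another base at N, before Mmp7, a matrix protease of duct cells that read 7.42, 7.37, 10.76 and 7.24. AP-1 was searched after the values had been seen, and both windows, on the + strand of GRCm38.p6 from the RefSeq promoter table, are shown as examples from the acute phase and duct groups that were more than 8-fold lower. Capitals mark the motif.
Orm2 (chr4:63362199-63362448): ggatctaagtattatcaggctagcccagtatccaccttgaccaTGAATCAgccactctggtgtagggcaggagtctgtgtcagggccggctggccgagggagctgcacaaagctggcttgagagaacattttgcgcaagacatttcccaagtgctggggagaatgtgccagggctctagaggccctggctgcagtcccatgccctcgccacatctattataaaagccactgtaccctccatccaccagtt
Mmp7 (chr9:7691840-7692089): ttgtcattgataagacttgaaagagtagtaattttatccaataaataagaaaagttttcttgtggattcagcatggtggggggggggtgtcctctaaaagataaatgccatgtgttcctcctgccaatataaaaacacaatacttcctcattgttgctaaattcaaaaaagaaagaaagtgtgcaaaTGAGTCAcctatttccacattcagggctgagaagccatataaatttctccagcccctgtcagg
The site ends 201 bases before the Orm2 start and 57 bases before that of Mmp7, counting the motif's last base. Over the 300 bases from 250 before to 50 after the start, the motif was found in 6.88% of 11277 kept genes with a promoter in the table, in 10.9% of 578 genes at least 2-fold lower and in 14 of 108 genes at least 2-fold higher. The share was above that of all genes on both sides, and a match of letters is not evidence of binding. These shares count any base at N, so they include copies that are not the usual AP-1 site, and the Orm2 copy, TGAATCA, is one of these.

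Fetal and imprinted genes, which liver silences after birth, were mostly lower with the transgene but in part above WT. Of 14 kept genes of immature hepatocytes, 8 had at least a 2-fold lower value, against 5.47% of all genes, and 5 were above 0. The median difference was -1.57. Afp, the fetal albumin homologue, read 6.64, 6.54, 13.26 and 8.11 on its brightest probe set. Bex1 read 4.34, 4.70, 12.12 and 9.08 and Ly6d, a surface protein, read 7.32, 7.51, 13.31 and 11.04, so that both kept more than 3 log2 units over WT. The heparan sulfate proteoglycan Gpc3 read 6.87, 7.12, 9.99 and 8.57. Of 18 kept imprinted genes, 7 were at least 2-fold lower, and 4 were above 0. Igf2, the fetal growth factor, read 7.70, 8.18, 14.07 and 11.06, and Peg3 read 8.09, 7.97, 11.49 and 7.91. Meg3 (-1.75), Plagl1 (-1.95) and Mest (-1.17) were lower as well, and Grb10 differed by -0.77.

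Stellate cell genes were lower, and collagens in part. Of 23 kept genes of stellate cells and matrix, 12 had at least a 2-fold lower value, against 5.47% of all genes. The median difference was -1.08. Acta2, the smooth muscle actin of activated stellate cells, read 8.44, 8.70, 10.14 and 8.32, and the receptor Pdgfrb read 7.60, 7.34, 9.50 and 7.90. Col1a1 read 8.22, 8.84, 10.71 and 9.03 and Col3a1 read 11.46, 11.94, 13.46 and 12.05, the fibrillar collagens of scar. Among 34 kept collagen genes, 10 were at least 2-fold lower and none higher, but 13 were above 0 and the median was -0.19. In TGF-beta and activin signalling, 9 of 21 were at least 2-fold lower, among them the ligands Tgfb2 (-1.43) and Tgfb3 (-1.40), the target Id1 (-2.03) and the antagonist Fst (-1.75). Inhbe, an activin chain of hepatocytes, was the exception and read 9.69, 10.01, 8.71 and 10.08. Endothelial markers differed less, with a median of -0.41. At least 2-fold lower was 1 of 14, Lyve1 (-1.73), or 7.14% against 5.47% of all genes.

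Several leading genes belonged to none of these groups. Sptssb, a small subunit of serine palmitoyltransferase that sets the chain length of sphingoid bases, read 4.96, 4.84, 11.02 and 4.57. It was first in order with 1 probe set per gene, but 4.57 is near background and leaves the size of its difference uncertain, and its second probe set differed by -3.48. Probe sets of Cxcl13 (-7.11) and Afp (-6.68) that did not represent their genes were lower by more. Degs2, which adds a hydroxyl group to ceramides, read 6.67, 6.60, 9.56 and 6.65, while Sptlc2, a catalytic subunit of serine palmitoyltransferase, differed by -0.63. Sult1e1, which inactivates estrogens by sulfation, read 5.40, 4.91, 10.59 and 5.29. Slc25a24, a mitochondrial carrier of adenine nucleotides, read 6.04, 5.88, 10.45 and 6.55. All 10 kept annexins, which bind membranes in the presence of calcium, were below 0, and Anxa13 (-3.54), Anxa3 (-2.83), Anxa1 (-2.33), Anxa2 (-1.76) and Anxa5 (-1.22) were at least 2-fold lower. The glycolytic isozymes of non-hepatic cells, Hk2 (-2.04), Pfkp (-1.84) and Pkm (-1.70), were lower, and the liver isozyme Pklr differed by 0.67.

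Signalling lists of inflammation and growth held some lower genes and few higher ones, against 5.47% lower among all genes. Of 23 kept NF-kB subunits and targets, 5 were at least 2-fold lower, among them Nfkbiz (-1.92), a cofactor of late targets, and Tnfaip3 (-1.48), which ends the signal. Of 22 interferon-stimulated genes 4 were at least 2-fold lower, and Oasl2 read 7.55, 7.64, 9.32 and 7.63. In the tumor necrosis factor family 3 of 27, or 11.1%, were at least 2-fold lower and 10 were above 0, with a median of -0.11, and the lymphotoxin gene Ltb was at a difference of -1.91. Among 15 genes of EGF receptor and Met signals the feedback inhibitors Spry2 (-1.35) and Dusp4 (-1.07) and the receptor Erbb2 (-1.02) were lower. The intracellular serpins Serpinb6b (-3.72) and Serpinb1a (-2.86), which leukocytes and epithelia express, were lower, and Serpina6, the corticosteroid carrier that hepatocytes secrete, was higher at 13.71, 13.31, 12.02 and 13.51.

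**Figure D3:**
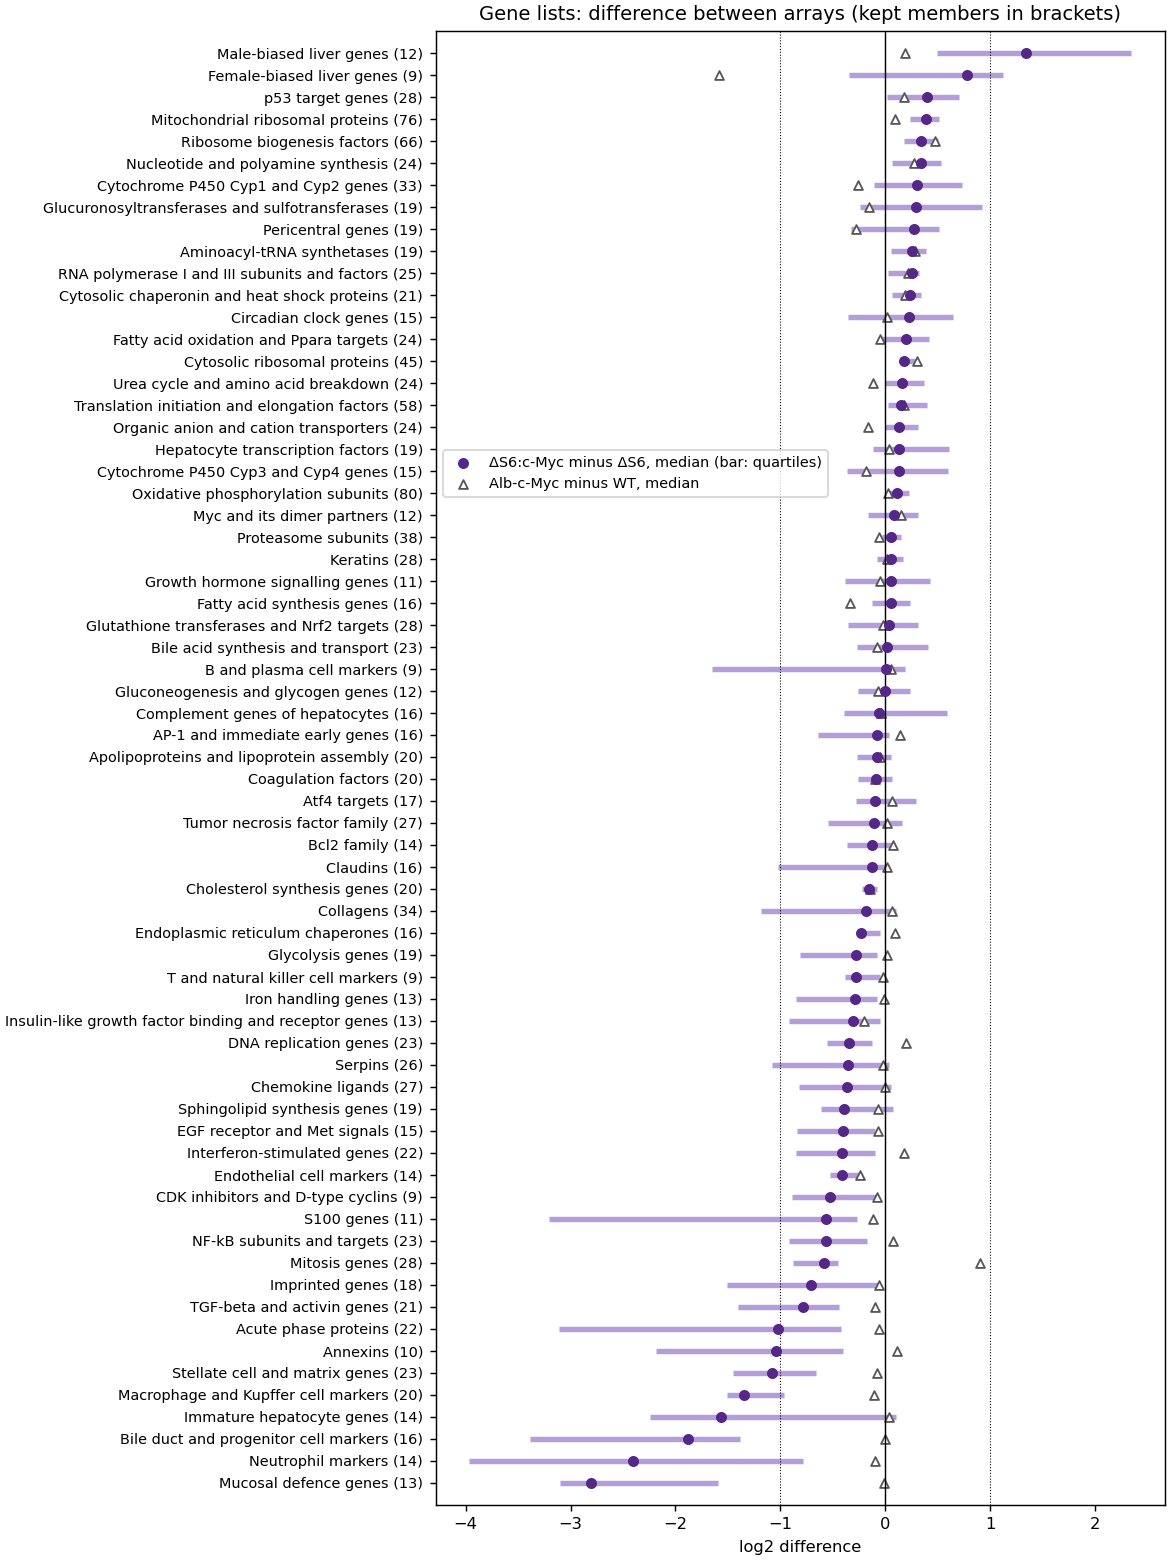
Median log2 difference of each gene list with 8 or more kept members, purity markers left out (filled circles, with bars from the lower to the upper quartile of the members), beside the median of the same genes for Alb-c-Myc minus WT (open triangles). Mucosal, neutrophil and duct lists lie farthest to the left at -2.80, -2.40 and -1.88, and male-biased liver genes farthest to the right at 1.34.

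Among the genes that were higher with the transgene, those of male liver stood out. Male mouse liver secretes major urinary proteins and expresses a set of enzymes and transporters under pulsatile growth hormone. All 3 kept major urinary protein genes were at least 2-fold higher. Mup10, first in order with 1 probe set per gene, read 12.30, 12.80, 7.19 and 11.10, Mup3 read 14.69, 14.80, 11.36 and 14.19 and Mup5 read 7.96, 7.98, 6.11 and 7.63. Signals of Mup genes are uncertain between members, since the family is nearly identical in sequence, and a second Mup3 probe set differed by 0.11. Of 12 kept male-biased genes, 7 were at least 2-fold higher, against 0.971% of all genes, and 11 were above 0. Slco1a1, an organic anion transporter whose second probe set differed by 4.13, read 12.91, 13.09, 7.23 and 10.94, and the steroid dehydrogenase gene Hsd3b5 read 11.96, 13.23, 5.30 and 8.43. Cyp4a12a, which hydroxylates arachidonic acid, read 13.36, 13.80, 8.01 and 10.82, and Cyp7b1, an oxysterol hydroxylase, read 12.57, 13.65, 10.02 and 12.21. Of these, Slco1a1, Hsd3b5 and Cyp4a12a stayed about 2 log2 units or more below WT, and Elovl3, a fatty acid elongase, read 11.95, 10.51, 5.62 and 6.79, more than 5 log2 units below WT.

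Female-biased genes were divided. Of 9 kept, 4 were higher by 2-fold or more and 2 lower, against 0.971% and 5.47% of all genes. Cyp2b9 read 11.77, 7.89, 9.89 and 12.10 and Cyp2b13 read 10.62, 7.06, 7.04 and 8.55, while Cyp17a1, which makes androgens, read 10.60, 9.01, 10.94 and 8.84 and the monooxygenase Fmo2 read 10.17, 8.87, 9.67 and 8.66. The WT array, which alone had high Xist, was high for Cyp2b9 and Cyp2b13, and the Alb-c-Myc array was low, so neither gives a plain reference for these genes. Of 11 growth hormone signalling genes the receptor Ghr (0.81), Igfals (0.84) and Igf1 (0.53) were above 0 but within 2-fold.

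Detoxifying enzymes and transporters were mixed. Of 33 kept Cyp1 and Cyp2 genes, 6 were higher by 2-fold or more and 4 lower. That is 18.2% and 12.1%, against 0.971% and 5.47% of all genes. Cyp2c38 read 11.47, 11.51, 8.29 and 11.21, Cyp1a2, which oxidizes caffeine, read 13.54, 13.19, 12.25 and 13.46 and Cyp2j5, an epoxygenase, read 12.97, 12.76, 10.87 and 12.28. All 3 were higher on the ΔS6:c-Myc array and within 1 log2 unit of WT. The lower members were Cyp2c65 (-2.80), Cyp2s1 (-1.52) and Cyp1a1 (-1.37), which extrahepatic epithelia also express, together with Cyp2c37. The carboxylesterase Ces1f read 13.49, 13.24, 10.47 and 13.17, the transporter Slc22a30 read 12.45, 12.35, 9.26 and 11.62, and the succinate receptor Sucnr1 read 9.53, 9.68, 6.94 and 9.36. Ugt2b1 (1.39), Ugt2b37 (1.65), Ugt2b38 (1.52) and Sult2a8 (1.54) of the conjugating enzymes were higher.

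Hepatocyte regulators differed in both directions. Onecut1, a hepatocyte nuclear factor, read 9.08, 9.74, 7.88 and 9.47, with both bright probe sets at least 2-fold higher. The bile acid receptor Nr1h4 read 11.89, 12.03, 11.08 and 12.11, whereas Nr0b2, the repressor it induces, differed by -1.34. The receptors Nr1i3 (0.99) and Ppara (0.99) were just under 2-fold higher, and Hnf4a, the main hepatocyte regulator, differed by 0.13. In bile acid synthesis Cyp7b1 was higher, as given above, and the sterol hydroxylase Cyp8b1 read 12.96, 13.24, 12.19 and 11.04. Of the clock genes Dbp read 12.19, 12.45, 9.38 and 11.21 and Per3 read 9.76, 9.91, 7.84 and 8.86, and Arntl, which cycles in the opposite phase, differed by -0.77. Since each array is a pool taken over a range of hours, the hour of death was not separated from genotype.

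Central metabolism was little different. No member of the lists for cholesterol synthesis (20 kept), fatty acid synthesis (16), urea cycle and amino acid breakdown (24) or coagulation (20) differed by 2-fold, and their medians ran from -0.16 to 0.16. G6pc, which releases glucose, was at least 2-fold lower at 13.18, 12.87, 12.67 and 11.32. Thrsp, which promotes fat synthesis and responds to carbohydrate feeding, read 14.39, 14.38, 10.37 and 10.68, so it stayed near its ΔS6 level. Igfbp1 (-0.92) and Igfbp2 (-0.92), which bind insulin-like growth factors in blood, were within 2-fold, and Igfbp3 (-1.40) and Igfbp5 (-1.26) were lower.

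The target groups of c-Myc in growth differed little in size and were mostly above 0. Those of cell division, given below, were mostly below 0. Of 66 kept ribosome biogenesis factors, 64 were above 0, against 53.9% of all genes, with a median of 0.34. Only 1, or 1.52%, was at least 2-fold higher, near the 0.971% of all genes. That gene was Nhp2, a core protein of small nucleolar ribonucleoproteins, at 10.69, 11.61, 11.61 and 12.85. Wdr12 read 9.32, 9.98, 9.80 and 10.68 and Nop56, another small nucleolar protein, read 8.90, 10.11, 10.14 and 10.89. For these 3 genes the ΔS6 array was already above WT, and the ΔS6:c-Myc array was the highest of the 4. Of 45 kept cytosolic ribosomal protein genes, 42 were above 0 and none differed by 2-fold, with a median of 0.18. This list holds Rps6 through a dim single-symbol probe set (0.77) that went against the 9 shared ones, and without it 41 of 44 were above 0 with a median of 0.18. In the enzymes of nucleotide and polyamine synthesis 20 of 24 were above 0, and spermidine synthase Srm read 10.15, 11.19, 10.28 and 11.33. Srm was about 2-fold higher with the transgene whether or not Rps6 was deleted. Odc1 (0.64), the first enzyme of polyamine synthesis, and Cad (0.51), of pyrimidine synthesis, were above 0, while Ctps (-0.76) was below.

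Mitochondrial ribosomal protein genes were mostly above 0 too. Of 76 kept members 69 were above 0, none by 2-fold, and the median was 0.39, against 0.10 for Alb-c-Myc minus WT. For the cytosolic list the median for Alb-c-Myc minus WT was 0.31, and its probe sets are much brighter, with a median level of 13.94 on the ΔS6 array against 10.67, so the lists are not ranked. Mrps18b read 10.97, 11.31, 11.23 and 12.11 and Mrps7 read 11.31, 11.46, 11.13 and 11.94. The mitochondrial RNA-binding protein gene Lrpprc read 11.28, 11.49, 11.18 and 12.31, and Atad3a, of the mitochondrial membrane, read 10.29, 10.83, 10.78 and 11.94. Of 80 oxidative phosphorylation subunits, 64 were above 0, with a median of only 0.11.

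The E-box CACGTG, which reads the same on both strands, was searched in the same 300-base windows. It was found in 11.2% of 11277 kept genes with a promoter, in 10.2% of the 108 genes at least 2-fold higher and in 8.82% of the 578 genes at least 2-fold lower. The genes that were higher thus held it at about the share of all genes. Of 56 ribosome biogenesis factors with a promoter in the table, 12, or 21.4%, held it, and of 67 mitochondrial ribosomal protein genes 5, or 7.46%. Shown are the 250 bases before the start for 3 of those 12. They were taken in order of difference among those with an E-box in that stretch, but windows on 1 chromosome were passed over. Onecut1 and Mtm1, chosen after their values were seen, are shown as well, since they held an E-box and were at least 2-fold higher. Capitals mark the E-box, and each sequence runs 5′ to 3′ in the direction of transcription.
Nop2 (chr6:125131633-125131882, + strand): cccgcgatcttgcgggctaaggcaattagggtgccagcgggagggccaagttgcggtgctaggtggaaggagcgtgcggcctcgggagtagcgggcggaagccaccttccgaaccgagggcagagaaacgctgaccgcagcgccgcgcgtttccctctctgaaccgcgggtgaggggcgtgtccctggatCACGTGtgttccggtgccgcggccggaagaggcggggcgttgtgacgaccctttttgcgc
Imp4 (chr1:34439579-34439828, + strand): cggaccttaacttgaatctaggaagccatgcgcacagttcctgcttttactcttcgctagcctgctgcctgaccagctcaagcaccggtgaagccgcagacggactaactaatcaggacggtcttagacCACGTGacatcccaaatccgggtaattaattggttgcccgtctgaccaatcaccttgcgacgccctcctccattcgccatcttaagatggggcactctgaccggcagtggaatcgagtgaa
Utp18 (chr11:93885767-93886016, - strand): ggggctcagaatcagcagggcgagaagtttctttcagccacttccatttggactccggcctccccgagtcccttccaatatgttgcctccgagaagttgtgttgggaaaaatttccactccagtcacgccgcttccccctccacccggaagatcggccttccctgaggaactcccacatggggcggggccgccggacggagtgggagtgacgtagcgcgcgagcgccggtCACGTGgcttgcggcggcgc
Onecut1 (chr9:74861671-74861920, + strand): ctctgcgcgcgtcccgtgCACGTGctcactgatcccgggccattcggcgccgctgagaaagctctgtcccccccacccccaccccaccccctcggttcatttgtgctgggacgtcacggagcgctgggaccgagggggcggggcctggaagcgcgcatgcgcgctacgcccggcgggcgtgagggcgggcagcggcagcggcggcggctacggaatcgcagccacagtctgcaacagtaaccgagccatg
Mtm1 (chrX:71214756-71215005, + strand): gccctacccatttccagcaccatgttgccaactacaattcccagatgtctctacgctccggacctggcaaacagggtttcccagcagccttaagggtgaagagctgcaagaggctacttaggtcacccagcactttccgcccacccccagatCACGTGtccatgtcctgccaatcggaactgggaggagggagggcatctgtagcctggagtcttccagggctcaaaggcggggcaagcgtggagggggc
Nop2, which methylates ribosomal RNA, read 9.20, 10.11, 9.67 and 10.14. Imp4 and Utp18, components of the complex that processes the small subunit RNA, read 9.93, 10.18, 10.10 and 10.51 and 9.17, 9.60, 9.74 and 10.06. Mtm1, a phosphoinositide phosphatase, read 8.57, 9.85, 9.31 and 10.84, but of its 3 probe sets 1 differed by only 0.17 and the others by 1.53 and 1.85.

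Mitosis genes were mostly lower. Of 28 kept mitosis genes, 5 were at least 2-fold lower, against 5.47% of all genes, and 26 were below 0, with a median of -0.58. Mki67, the standard marker of cycling cells, read 6.95, 8.84, 9.84 and 8.73. Ccnb2, a cyclin of mitosis, read 6.61, 8.68, 9.55 and 8.31, and Cdk1, its kinase, read 8.40, 9.51, 10.44 and 9.53. The values of the 2 arrays with the transgene were close to each other and lay between WT and ΔS6. Of 23 DNA replication genes 19 were below 0, with a median of -0.35, but at 2-fold 1 was lower, Uhrf1 (-1.12), and 1 higher, which is 4.35% on either side. The higher one, Mcm10, was so on its brightest probe set at 12.16, 12.65, 8.75 and 11.40, but its other probe sets differed by 0.28 and 0.09, so its value rests on 1 probe set. Ccnd1, the cyclin of entry into the cycle, read 10.59, 9.69, 12.23 and 12.15, and Ccnd2 read 8.79, 8.71, 10.24 and 9.02.

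Genes that p53 activates were on the whole not lower with the transgene. Of 28 kept p53 targets 21 were above 0 and 7 below, with a median of 0.40. At least 2-fold higher were 3, namely Aen, Eda2r and Ccng1, against 0.971% of all genes, and 1 was at least 2-fold lower. Aen, an apoptosis nuclease, read 9.31, 10.10, 10.94 and 12.10, Eda2r, a receptor of the TNF family, read 5.34, 5.51, 7.80 and 8.93, and Ccng1 read 9.97, 10.46, 11.69 and 12.76. Cdkn1a, the p21 inhibitor of cyclin-dependent kinases, read 8.89, 9.70, 12.57 and 13.50, and its second probe set differed by 0.83. Mdm2, which degrades p53, read 9.95, 10.30, 11.31 and 12.25. All 5 were highest on the ΔS6:c-Myc array. Pmaip1, which encodes the death protein Noxa, went the other way at 5.14, 4.86, 9.47 and 5.88. Sox4 (-2.11) and Peg3 (-3.59), which the study also names among p53 targets, were lower too, as given above. Stress genes held single members in both directions. Of 17 Atf4 targets 1 was at least 2-fold higher, Ddit3 at 8.73, 8.67, 10.79 and 12.19, and 1 lower, Psat1 (-2.34), with 9 below 0. That is 5.88% on either side, against 0.971% of all genes higher and 5.47% lower, so the lower count is near the share of all genes. Of 16 AP-1 and immediate early genes 1, or 6.25%, was higher, Atf3 at 6.41, 6.74, 8.50 and 9.54. Lower were 3, or 18.75%, namely Ier3 (-2.76), Fos (-1.40) and Dusp1 (-1.11).

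**Figure D4:**
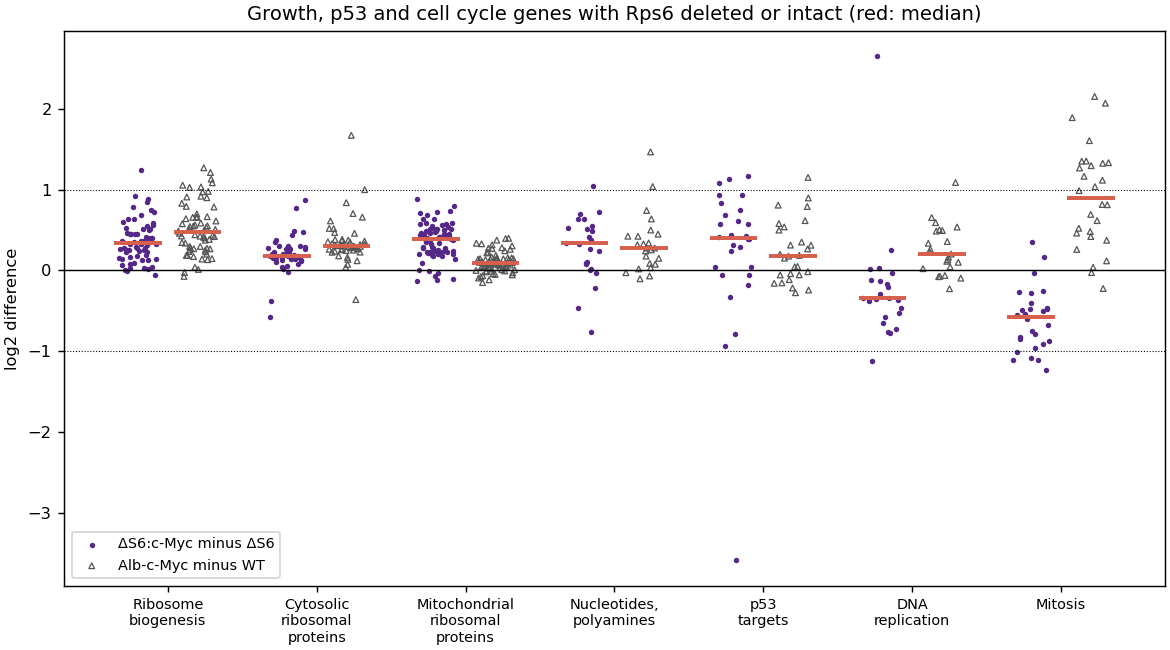
Log2 difference of every kept member of 7 gene lists, for ΔS6:c-Myc minus ΔS6 (filled circles) and Alb-c-Myc minus WT (open triangles), with medians in red. The medians of the growth lists lie above 0 in both comparisons, while the mitosis genes have a median of -0.58 with Rps6 deleted and 0.90 with Rps6 intact.

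The transgenic and WT livers with intact Rps6 differed in fewer genes. Alb-c-Myc minus WT shares no array with the comparison above. Over the same 14104 genes 54, or 0.383%, were at least 2-fold lower and 75, or 0.532%, at least 2-fold higher. The 54 include 8 of 9 female-biased genes and 6 of 8 markers of pancreatic acinar cells, which were high on the WT array as Xist was, and the part of the WT pool in these differences was not tested. Across genes, which are not independent replicates, the differences with and without Rps6 had a Pearson correlation of 0.10 and a Spearman correlation of 0.16. Of the 771 genes lower in Rps6-deficient liver 8 were also at least 2-fold lower with Rps6 intact, which is 1.04% of the first list and 14.8% of the second, and 12 were at least 2-fold higher there. Of the 137 higher genes 10 were also higher, which is 7.30% and 13.3%, and 6 were lower. The 8 lower in both were Acta1, Cyp17a1, Reg1, Slc22a26, Ildr2, Nipal1, Fmo2 and Cyp2c37, of which Cyp17a1 and Fmo2 are on the female-biased list, Acta1 is a muscle gene and Reg1 a gene of the pancreas. The 10 were Myc, Hsd3b5, Cyp7b1, Slc10a2, AI506816, Mtm1, Ugt2b38, A1cf, Comtd1 and Srm. Slc10a2, the ileal bile acid carrier, read 6.67, 8.66, 5.64 and 7.43, and A1cf, a factor of apolipoprotein B mRNA editing, read 8.93, 9.93, 8.55 and 9.77. Nox4, an oxidase that produces hydrogen peroxide, read 6.79, 7.79, 5.53 and 8.01, just under 2-fold higher with Rps6 intact. Whether a difference depends on Rps6 was not tested, since there is no replicate.

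**Figure D5:**
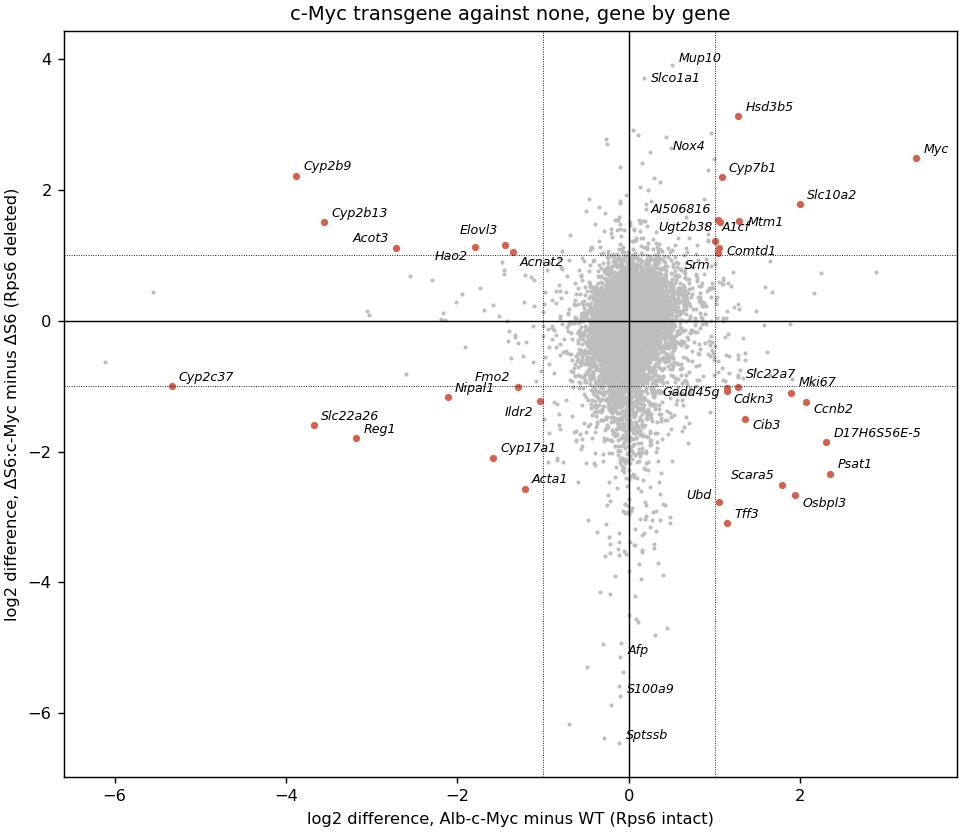
Each point is 1 of 14104 genes, with Alb-c-Myc minus WT on the x axis and ΔS6:c-Myc minus ΔS6 on the y axis, both in log2 units. Dotted lines mark 2-fold, and the labelled red points are the genes past 2-fold on both axes, 18 in opposite directions and 18 in the same direction. The lowest genes, such as Sptssb, S100a9 and Afp, lie near 0 on the x axis.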

How the data were processed

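Total liver RNA of 4 genotypes, pooled in equal amounts from 3 mice each, was hybridized to 1 Affymetrix mouse array per genotype. The deposited values are log2 signals that the authors made from the scanned arrays with the affy package by RMA, including quantile normalization. No version of the software was found in the labels or methods. The 4 array medians lay between 6.85 and 6.88, and quantile normalization removes any shift common to all genes.

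Of 45101 probe sets, 34958 carried 1 gene symbol in the platform annotation, 932 several and 9211 none, and 64 were controls. Of the single-symbol probe sets 34754 were matched to current records by Entrez number, and no symbol changed. A gene was represented by the probe set with the highest mean over 4 arrays, and kept at log2 6 or more on either array compared. Differences were computed with Python 3.11.15, numpy 2.4.6 and pandas 2.3.3, and figures drawn with matplotlib 3.10.9. Counting was tested on simulated data. Precision is limited by the number of arrays.

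Named were the 25 lowest and 25 highest genes, the 10 lowest and 10 highest genes with several bright probe sets that all differ by 2-fold, and members of 73 gene lists. From each list first the 4 members with the largest difference were eligible, then members that complete a family. The comparison, the lists and the genes were chosen with earlier results of these data known. Alternatives were centring on the median, repeated quantile normalization, loess (span 0.3), other filters, other probe set rules and other folds, and a filter on both arrays and the AP-1 motif were chosen after seeing the data. Motifs were searched in RefSeq promoter windows of GRCm38.p6 for 11277 genes, and 2240 of these had several windows and were counted if any window held the motif.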

Additional observations from a re-analysis of the deposited data

Results flagged for a closer look

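Differences that ran in opposite directions with Rps6 deleted and with Rps6 intact were collected, without a test of the difference between them, since each rests on 1 array per genotype. By list median over lists with at least 10 kept members, 6 of 62 lists were opposed with both medians beyond a cut-off. The cut-off was the SD between probe sets of a gene, 0.20 with Rps6 deleted and 0.14 with Rps6 intact. Further lists had medians of opposite sign but within the cut-off in at least 1 comparison, such as annexins at -1.04 and 0.11, and were not counted. Mitosis genes had a median of -0.58 in ΔS6:c-Myc minus ΔS6 and 0.90 in Alb-c-Myc minus WT, DNA replication genes -0.35 and 0.20, and interferon-stimulated genes -0.41 and 0.18. Cyp1 and Cyp2 genes had medians of 0.30 and -0.26, glucuronosyltransferases and sulfotransferases 0.29 and -0.16, and pericentral genes 0.27 and -0.28.

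Single genes were opposed at 2-fold or more in 18 cases. Lower with Rps6 deleted and higher with Rps6 intact were 12 genes, beginning with Tff3 (-3.10 and 1.15), Ubd (-2.78 and 1.05), Osbpl3 (-2.66 and 1.94) and Scara5 (-2.51 and 1.79). Psat1, an enzyme of serine synthesis, differed by -2.34 and 2.35 and read 5.74, 8.10, 9.65 and 7.31 in the order WT, Alb-c-Myc, ΔS6 and ΔS6:c-Myc. D17H6S56E-5 (-1.86 and 2.30), Cib3 (-1.50 and 1.36), Gadd45g (-1.03 and 1.14) and Slc22a7 (-1.01 and 1.28) followed, with the cycle genes Ccnb2 (-1.24 and 2.07), Mki67 (-1.11 and 1.89) and Cdkn3 (-1.07 and 1.14). The 6 genes that were higher with Rps6 deleted and lower with Rps6 intact were Cyp2b9 (2.22 and -3.88), Cyp2b13 (1.51 and -3.56), Elovl3 (1.16 and -1.44), Hao2 (1.13 and -1.80), Acot3 (1.12 and -2.71) and Acnat2 (1.05 and -1.35). For these the WT array, on which Xist read 11.84 against 6.29 on the Alb-c-Myc array, sets the second value, and the part of that difference between the pools was not tested.

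Probe sets that match several genes were outside the comparison, and 8 of the 673 that passed the filter were at least 8-fold lower on the ΔS6:c-Myc array. They were the one of Cstdc5 and Stfa1, which encode cysteine protease inhibitors of myeloid cells, at -4.93, and the 2 of the Sprr2a genes, which encode cornified envelope proteins, at -4.26 and -4.22. The 3 probe sets of immunoglobulin kappa were lower by log2 values of -3.70, -3.45 and -3.29, the one of Pald1 and Thbs1 by -3.59 and that of the Sirpb1 receptors by -3.16.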

How the results depend on the processing

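Lower genes outnumbered higher ones under every alternative run, with 611 to 828 lower and 114 to 158 higher genes under 9 other choices of scale, normalization, filter and probe set at the 2-fold threshold. At 1.5-fold there were 1655 lower and 712 higher genes, at 4-fold 153 and 21, and at 8-fold 57 and 3. The median of all genes ran from -0.01 to 0.07. Of the 57 lists with a median of at least 0.1 in size, 31 shrank by more than 1.5 times under some alternative and 2 took the other sign, and over all 73 lists 14 did. Cytosolic ribosomal proteins ran from 0.10 to 0.20, mitosis genes from -0.75 to -0.39, serpins from -0.42 to -0.02, male-biased genes from 0.76 to 1.86 and female-biased genes from 0.24 to 0.86, whereas ribosome biogenesis factors stayed between 0.27 and 0.38 and macrophage markers between -1.43 and -1.30. The 2 lists of those 57 with the other sign were the circadian clock genes, at -0.0253 with no filter on low values and at -0.004 with the probe set highest on the arrays compared, and the T and natural killer cell markers, at 0.12 with log2 8 or more on either array, where 1 gene was left. Of the 50 genes at the extremes 13 moved by more than 0.20, the SD between probe sets of a gene, under some alternative, none changed sign, and 21 had no value under some alternative. The class II antigen presentation median moved to -0.40, over 4 genes, without probe sets that match several transcripts. The loosened AP-1 pattern in place of the E-box was found in 10.9% of lower genes against 8.82%. No replicate could be left out, and no SD between animals exists. No paired analysis was possible because each genotype has 1 array. The Rps6 signal differs between the arrays compared.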

Other observations

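Outside the single-symbol genes, the probe sets shared by several genes included 49 that were at least 2-fold lower and 13 at least 2-fold higher, and among 3801 probe sets with no symbol that passed the filter 90 were lower and 23 higher. A probe set of H19, a fetal noncoding RNA of the imprinted Igf2 region, is shared with another symbol. It read 14.79 on the ΔS6 array and 13.80 on the ΔS6:c-Myc array. Both were far above the WT array at 5.63 and the Alb-c-Myc array at 6.17. Hapln1, a link protein of the hyaluronan matrix, read 5.47, 5.68, 5.74 and 7.44 in the order WT, Alb-c-Myc, ΔS6 and ΔS6:c-Myc, and Rec8, a meiotic cohesin, read 6.75, 6.92, 6.32 and 7.85.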
